A study of Homo sapiens with 8 samples.

Results

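The protocadherins are the largest branch of the cadherin superfamily of cell adhesion molecules, and their transcripts were followed through 4 time points of a neural differentiation course. Members were the rows of the deposited gene table whose name starts with PCDH and does not end in P or in P and digits, which left 67 genes of 37951 rows. They comprised 16 alpha (PCDHA), 16 beta (PCDHB) and 22 gamma (PCDHG) genes of the clustered family and 13 single genes. Another 6 rows whose names begin with PCDH ended in P or P and digits and were left out, and their values lay between 0 and 0.564 TPM, a unit that gives a transcript's abundance per unit length relative to all transcripts in its library.

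The cells were ESI017, a human embryonic stem cell line of wild-type genotype per the labels. All libraries came from cells in N2B27, a serum-free neural medium, with SB at 10 µM and LDN at 100 nM. WNT3A protein (300 ng/mL) was added at 34 h, the hour at which the first group was taken, and the 42, 50 and 72 h groups had it for 8, 16 and 38 h. Each group held 2 libraries of poly(A) RNA, replicate 1 and replicate 2, which carry batch numbers 1 and 2 in the labels. The second replicate is described as biologically independent, with no further detail, so p-values measure the spread between these libraries. An arm without WNT3A was not analysed here, so the effect of WNT3A and the passage of time cannot be told apart.

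Clustered protocadherin genes stand in tandem arrays on chromosome 5, and in the alpha and gamma arrays each gene has its own promoter and first exon, which is spliced to exons shared by the whole array. Neurons are known to use a few of the alternative promoters each, through looping by CTCF and cohesin and through DNA methylation, and the resulting mixtures of proteins on the surface let a neuron tell its own branches from those of others. C-type genes at the end of the alpha and gamma arrays are regulated apart from the alternate genes. Single protocadherins are dispersed over the genome and are grouped by their cytoplasmic motifs into delta-1 and delta-2 types, which act in cell sorting, axon growth and morphogenesis. In bulk RNA, more cells that carry a transcript and more transcript per cell cannot be told apart.

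The promoters are shown first because the clustered genes differed widely in level while many of an array shared a short promoter word. RefSeq promoter windows (GRCh38.p14, 250 bases before to 50 after the start) existed for 58 of the 67 members. The most frequent 9-base word of each array was searched on both strands in its windows, a choice made on these sequences, and it is in capitals below. In the alpha array it was GATGTCGCT, found in 9 of 13 genes with a window and in 0.105% of all 35116 windows. In the beta array it was GGTGGCGCT, found in 13 of 14 genes and in 0.501% of all windows. In the gamma array it was GCGCCGCTG, found in 10 of 20 genes and in 1.28% of all windows. None of these words occurred in the windows of the other arrays. All 3 words hold CGCT, which is common: on either strand it was in 70.0% of all windows and in those of 46 of 47 clustered genes. The lines give 36 bases around the word, 5′ to 3′ on the plus strand, for the 2 members with the highest and the 2 with the lowest mean TPM among those whose 36 bases end before the annotated start.
PCDHA6 (chr5:140827888-140827923): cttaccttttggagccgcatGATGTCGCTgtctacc
PCDHA12 (chr5:140875235-140875270): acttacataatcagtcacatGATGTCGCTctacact
PCDHA7 (chr5:140834163-140834198): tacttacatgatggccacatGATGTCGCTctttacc
PCDHA8 (chr5:140841121-140841156): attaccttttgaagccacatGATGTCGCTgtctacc
PCDHB2 (chr5:141094535-141094570): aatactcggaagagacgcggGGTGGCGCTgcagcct
PCDHB5 (chr5:141135170-141135205): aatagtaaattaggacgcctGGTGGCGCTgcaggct
PCDHB9 (chr5:141187065-141187100): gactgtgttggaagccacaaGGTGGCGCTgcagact
PCDHB7 (chr5:141172557-141172592): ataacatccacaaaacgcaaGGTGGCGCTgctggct
PCDHGA11 (chr5:141420964-141420999): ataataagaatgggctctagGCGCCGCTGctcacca
PCDHGB4 (chr5:141387609-141387644): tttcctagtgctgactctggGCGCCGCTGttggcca
PCDHGA1 (chr5:141330395-141330430): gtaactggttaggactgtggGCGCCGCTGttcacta
PCDHGA7 (chr5:141382641-141382676): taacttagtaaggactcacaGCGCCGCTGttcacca

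Genes with the same word had very different levels. Over all 8 libraries the 13 beta genes with the word had mean levels from 0.113 TPM (PCDHB8) to 21.8 TPM (PCDHB2), with a median of 0.756 TPM. Alpha genes with the word ranged from 0.465 to 6.53 TPM and those without it from 0.364 to 4.11 TPM. Gamma genes with the word ranged from 0.173 to 7.11 TPM, and the 10 without it from 0.221 to 19.6 TPM, the highest being PCDHGC3. The ranges with and without the word overlapped in the alpha and gamma arrays, so there the word as a string of letters did not separate high from low members. The median levels with and without the word were 3.16 and 1.75 TPM in the alpha array and 1.13 and 0.920 TPM in the gamma array. In the beta array PCDHB1, the 1 gene without the word, had 0.0968 TPM, below all 13 with it. A relation of the word with the level was not tested. PCDHGC3 and PCDHGC4, the gamma genes with the highest levels at 72 h, did not hold the gamma word in their windows. The 180 bases before their first annotated start are given with those of PCDH8, the single gene with the largest rise, and CGCT or its complement AGCG is in capitals.
PCDHGC3 (chr5:141475767-141475946, plus strand): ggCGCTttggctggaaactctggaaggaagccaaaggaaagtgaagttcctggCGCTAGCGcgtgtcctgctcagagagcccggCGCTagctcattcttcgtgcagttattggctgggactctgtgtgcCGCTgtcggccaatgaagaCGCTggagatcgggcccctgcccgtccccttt
PCDHGC4 (chr5:141484817-141484996, plus strand): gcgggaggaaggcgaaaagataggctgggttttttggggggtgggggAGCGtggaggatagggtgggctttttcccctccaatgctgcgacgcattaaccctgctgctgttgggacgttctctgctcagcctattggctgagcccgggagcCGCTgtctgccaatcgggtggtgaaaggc
PCDH8 (chr13:52848642-52848821, minus strand): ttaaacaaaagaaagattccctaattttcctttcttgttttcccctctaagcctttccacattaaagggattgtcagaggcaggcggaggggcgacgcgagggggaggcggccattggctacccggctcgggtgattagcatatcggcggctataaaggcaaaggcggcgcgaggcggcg
The PCDHGC3 stretch held the 4 letters 6 times on either strand, the PCDHGC4 stretch 2 times and the PCDH8 stretch 0 times. A match describes letters and says nothing on whether a factor binds.

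Replicate libraries correlated at 0.980 to 0.984 (Spearman) over the tested genes, and 13860 to 14004 genes reached 1 TPM in a library. Read depth is unknown from TPM. Of the 67 members 33 had 1 TPM or more in 2 or more of the 8 libraries and were tested among 14908 genes, namely 9 alpha, 6 beta, 13 gamma and 5 single genes. The other 34, apart from PCDH11Y, whose level is not given, stayed at or below 1.98 TPM in every library, a value reached by PCDH19 in 1 library. Each test was limma on log2(TPM + 1) with Benjamini-Hochberg adjustment over all tested genes, and an adjusted p under 0.05 counted as a call. Because members passed the filter through the libraries in which they are high, the counts below describe 33 members and not the family.

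By 72 h the calls lay in the gamma array and among the single genes. At 72 h against 34 h 11 of the 33 tested members were called, where 24.0% of all tested genes were. The 8 raised members were PCDH8, PCDH18, PCDHGA11, PCDHGB4, PCDHGB6, PCDHGB7, PCDHGC3 and PCDHGC4, against 12.7% of all genes raised. The 3 lowered were PCDH1, PCDH7 and PCDH11X, against 11.3% of all genes lowered. The median log2 change of the 33 was 0.40, against 0.06 over all tested genes. At 50 h against 34 h 6 members were called, against 6.26% of all genes: PCDHGB6, PCDHGB7, PCDHGC3 and PCDHGC4 raised (3.52% of all genes) and PCDH1 and PCDH7 lowered (2.74%). At 42 h against 34 h limma called 0 members, where 2.58% of all genes were called. At an unadjusted p under 0.05 there were 6 of the 33, beside 2069 of the 14908 genes. With the replicate number as a block the 42, 50 and 72 h comparisons with 34 h called 1, 7 and 12 members. The same block model called 403, 933 and 3601 of all 14908 genes in these comparisons. At 50 h against 42 h limma called 0 members in any setting run, where 0.0939% of all genes were called, and 6 had an unadjusted p under 0.05, beside 1394 of all 14908. At 72 h against 50 h 2 members were called, PCDH8 raised and PCDH11X lowered, against 7.33% of all genes, 2.92% raised and 4.41% lowered. The moderated F-test over the 3 comparisons with 34 h called 11 members, 6 gamma and 5 single genes, against 17.4% of all genes. The 3 comparisons with 34 h share the 34 h libraries.

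**Figure D1:**
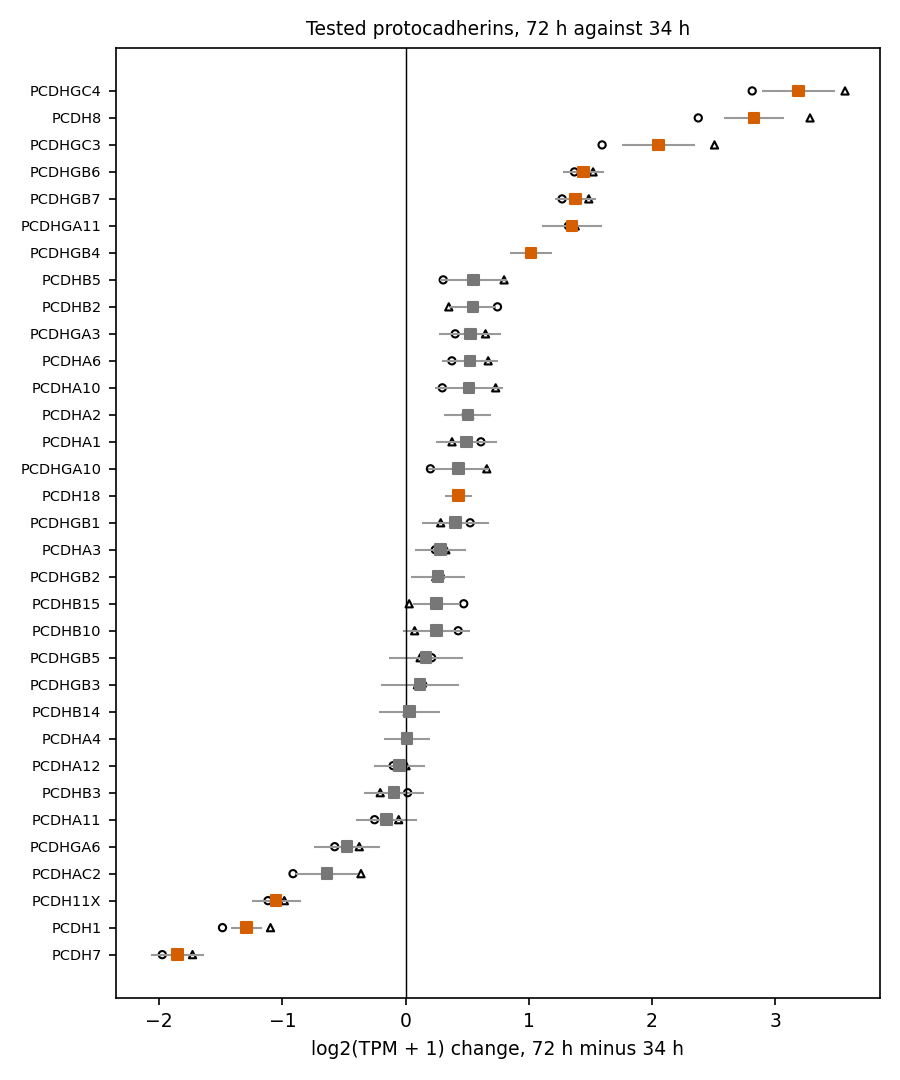
Change in log2(TPM + 1) from 34 to 72 h of the 33 tested protocadherins, ordered by size. Squares are the mean change with its standard error, orange where the limma adjusted p is under 0.05 and grey otherwise, and open circles and triangles are the changes within replicate 1 and replicate 2 (n = 2). PCDHGC4 has the largest rise, 3.19, and PCDH7 the largest fall, -1.85.

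PCDH1, a delta-1 gene (chromosome 5, 141853111 to 141879246, minus strand in GENCODE 29 on GRCh38) that mediates adhesion of epithelial cells, had the highest mean level of all members over the 8 libraries. It had 117 and 92.2 TPM (34 h), 73.5 and 71.0 (42 h), 62.6 and 55.7 (50 h) and 41.0 and 42.6 (72 h). The time points did not overlap, and each later pair lay below the one before. PCDH1 fell by 1.29 ± 0.13 (SE) on the log2 scale from 34 to 72 h, with -1.49 and -1.10 within the replicates (limma adjusted p 0.00029). The fall at 50 h, 0.80, also passed (adjusted p 0.0087), but not without replicate 1 of 34 h (adjusted p 0.0517). From 50 to 72 h the change of -0.49 did not pass (adjusted p 0.0587), and passed with the replicate block (0.0492) and without either 34 h library (0.0421 and 0.0414).

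PCDH7 (chromosome 4, 30720415 to 31146805, plus strand), a delta-1 gene whose product binds its own kind at cell contacts, fell at the same time. Its levels were 9.26 and 8.70 TPM (34 h), 3.85 and 5.54 (42 h), 3.35 and 2.49 (50 h) and 1.61 and 1.92 (72 h). Both 34 h libraries were above all others. The log2 change was -1.85 ± 0.22 at 72 h (-1.98 and -1.73 within the replicates, limma adjusted p 0.000695) and -1.36 at 50 h (adjusted p 0.00875). The call at 50 h was lost without replicate 1 (0.0660) or replicate 2 (0.0594) of 34 h or replicate 2 of 50 h (0.0508).

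PCDH11X (chromosome X, 91779261 to 92623230, plus strand) is a delta-1 gene with a nearly identical copy, PCDH11Y, with which reads can be shared, so its level is uncertain. It was listed at 4.23 and 3.44 TPM (34 h), 3.57 and 2.92 (42 h), 3.20 and 3.11 (50 h) and 1.41 and 1.25 (72 h). The 72 h libraries were the lowest, the 50 h libraries lay below those of 34 h, and the 42 h libraries overlapped both. The change from 34 to 72 h was -1.05 ± 0.20 (-1.12 and -0.98 within the replicates, limma adjusted p 0.0072, and 0.0538 without replicate 1 of 34 h). From 50 to 72 h it was -0.84 ± 0.20 (adjusted p 0.0435), a call kept in 4 of 16 other settings and lost, for example, with the replicate block (0.0503) and without any single library (0.0596 to 0.184). PCDH11Y is a member by name and did not pass the filter, and its level is not given. The last delta-1 gene, PCDH9, did not pass the filter either, with 0.101 and 0.234 TPM (34 h) and 1.27 and 0.813 TPM (72 h). When no filter was applied PCDH9 was called raised (0.80, adjusted p 0.0189).

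PCDH8 (chromosome 13, 52842889 to 52848641, minus strand), the human counterpart of paraxial protocadherin and a delta-2 gene, is known from paraxial mesoderm and from synapses. It had 3.46 and 1.74 TPM (34 h), 2.69 and 2.13 (42 h), 5.10 and 4.98 (50 h) and 22.2 and 25.6 (72 h). The 34 and 42 h libraries overlapped, the 50 h libraries lay above them, and the 72 h libraries lay far above all others. The log2 change from 34 to 72 h was 2.83 ± 0.24 (2.38 and 3.28 within the replicates, limma adjusted p 0.000141). Most of this fell between 50 and 72 h, with a change of 2.04 ± 0.24 (adjusted p 0.00234). At 50 h against 34 h the change of 0.79 did not pass (adjusted p 0.109), and it was 1.14 (0.0431) without replicate 1 of 34 h and 0.44 (0.413) without replicate 2.

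Markers of paraxial mesoderm were compared with PCDH8 because of its known expression there. The summed level of the 8 markers was 2.53 to 3.06 TPM (34 h), 11.2 to 14.8 (42 h), 9.94 to 14.1 (50 h) and 4.11 to 5.18 (72 h). Only TBXT and MIXL1 passed the filter. TBXT, a gene of the primitive streak, was at 0.831 and 1.16 TPM (34 h), 11.4 and 7.92 (42 h) and 1.62 and 1.87 (72 h). MSGN1 was listed at 0 in all 8 libraries. TBX6, a paraxial mesoderm factor, lay between 0.411 and 0.888 TPM up to 50 h and was highest at 72 h, with 1.00 and 1.07 TPM. MEOX1 had 0.0673 to 0.680 TPM up to 50 h and 0.412 and 0.767 TPM at 72 h. The marker sum, held mostly by TBXT at 42 and 50 h, was lower at 72 h, when PCDH8 and TBX6 were highest, and the part of such cells in the PCDH8 rise was not tested.

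PCDH18 (chromosome 4, 137518918 to 137532494, minus strand), another delta-2 gene, had the second highest mean level. It had 60.8 and 57.4 TPM (34 h), 49.6 and 57.0 (42 h), 71.8 and 78.4 (50 h) and 82.7 and 77.0 (72 h). The 50 and 72 h libraries overlapped each other and lay above the 34 and 42 h libraries. The rise at 72 h was small, 0.43 ± 0.11 (0.44 and 0.42 within the replicates, limma adjusted p 0.0239). It was lost without a mean trend of the variance (0.0530) and without any 1 of the 34 or 72 h libraries (0.0681 to 0.135). PCDH1 was above PCDH18 in every 34 and 42 h library and below it in every 50 and 72 h library.

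The other delta-2 genes, PCDH10, PCDH17, PCDH19 and PCDH20, did not pass the filter. PCDH19, whose loss causes an X-linked epilepsy, had 0.304 to 1.98 TPM, and its 72 h libraries, 0.304 and 0.426 TPM, were below its 34 h libraries, 0.720 and 0.635 TPM. PCDH12, known from endothelium, stayed between 0.119 and 0.811 TPM. PCDH15 stayed between 0.0156 and 0.421 TPM. It forms the tip links of hair cells with CDH23, which is described with the other large cadherins below.

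**Figure D2:**
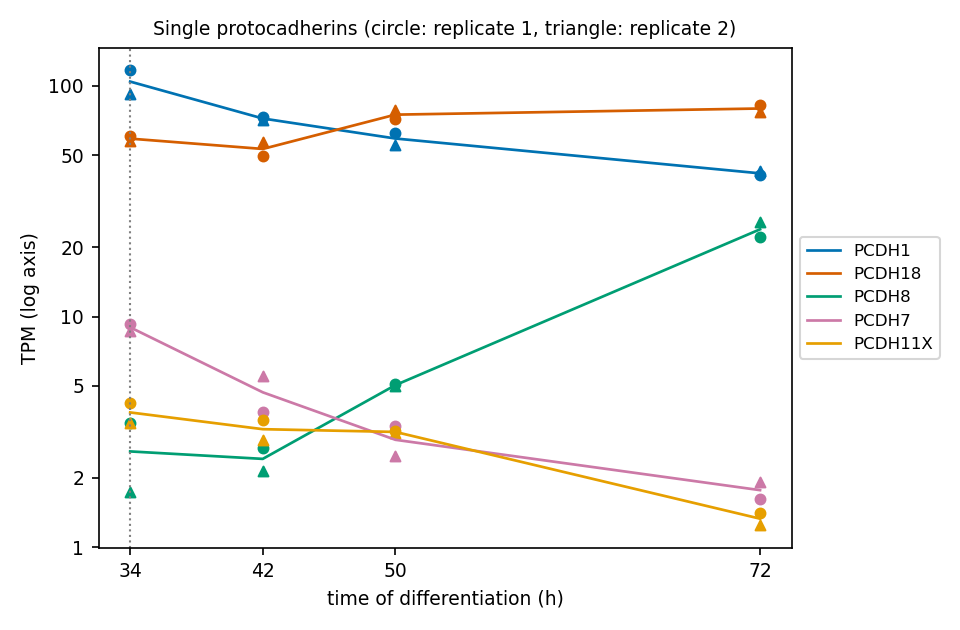
TPM of the 5 tested single protocadherins (log axis) against hours of differentiation. Circles and triangles are replicates 1 and 2, lines join the means (n = 2), and the dotted line at 34 h marks the addition of WNT3A. PCDH1 falls from 117 and 92.2 to 41.0 and 42.6 TPM and crosses PCDH18, and PCDH8 reaches 22.2 and 25.6 TPM at 72 h.

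In the clustered family, the sum over the gamma array was higher at each later time point in both replicates, while the alpha and beta sums stayed closer to their 34 h levels. The summed gamma level was 43.6 and 32.4 TPM (34 h), 61.1 and 60.0 (42 h), 98.4 and 74.9 (50 h) and 131 and 128 (72 h). No 2 time points overlapped, and the ratio of 72 to 34 h was 2.99 in replicate 1 and 3.95 in replicate 2. The summed alpha level was 33.9 ± 6.52 TPM (34 h) and 39.6 ± 2.17 TPM (72 h) (SD, n = 2), and these libraries overlapped. The summed beta level was 42.1 ± 5.81 TPM (34 h) and 58.4 ± 13.2 TPM (72 h), with 46.3 and 38.0 TPM in the first and 67.8 and 49.1 TPM in the second, which did not overlap. As a share of all clustered TPM, the gamma genes went from 33.2% ± 1.06 at 34 h to 44.8% ± 0.171, 50.8% ± 1.81 and 57.0% ± 3.50 at 42, 50 and 72 h. Over the same span the alpha share went from 29.7% ± 0.443 to 17.5% ± 0.374 and the beta share from 37.1% ± 1.50 to 25.6% ± 3.87. These sums and shares are descriptions and were not tested.

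**Figure D3:**
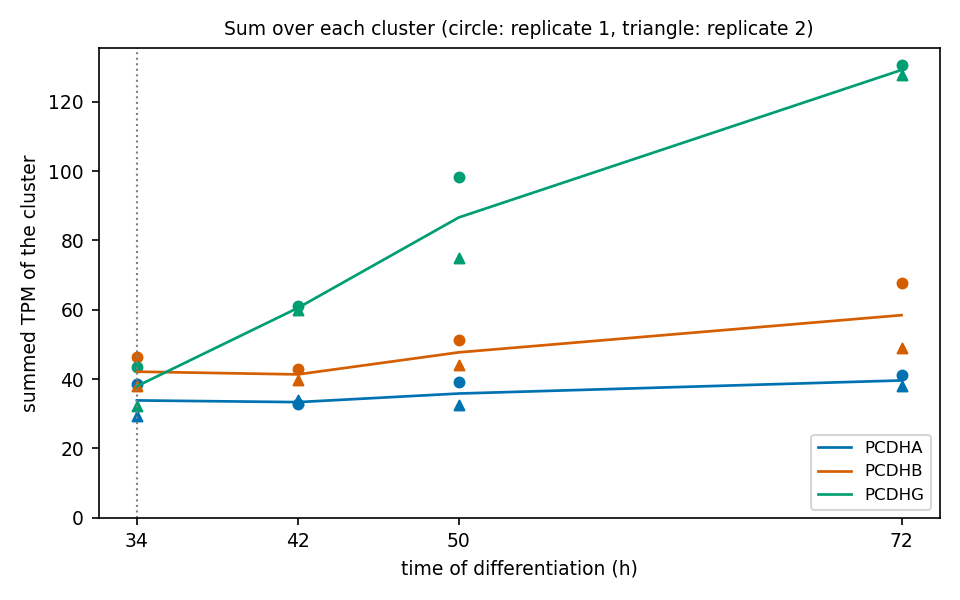
Summed TPM of the 16 PCDHA, 16 PCDHB and 22 PCDHG genes against hours of differentiation. Circles and triangles are replicates 1 and 2, lines join the means (n = 2), and the dotted line at 34 h marks the addition of WNT3A. At 34 h the gamma points, 43.6 and 32.4 TPM, lie among those of the other arrays, and the 72 h gamma points, 131 and 128 TPM, lie far above them.

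How a gamma or alpha transcript is assigned bears on each value within those arrays. In GENCODE 29 the 22 gamma genes all share 3 exons, of 59, 89 and 2033 bases (chromosome 5, 141494807 to 141494865, 141505393 to 141505481 and 141510947 to 141512979). The shared exons make up 45.6% to 47.6% of the bases of full-length gamma transcripts. Of the alpha genes 15 of 16 share exons of 59, 89 and 2718 bases, which make up 45.5% to 54.9% of the alpha transcripts that hold all 3. Beta genes share none. Among gamma genes only PCDHGC3, with 4, and PCDHGC4, with 1, have annotated transcripts that are mostly shared exon, and 1 of the 4 lies wholly in it. In the alpha array 16 transcripts are mostly shared exon, and the 2 that lie wholly in it belong to PCDHAC2. Reads from shared exons do not tell the genes apart, so levels within the alpha and gamma arrays are uncertain, and the part this plays in the results was not tested.

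Of the gamma array, the C-type genes PCDHGC4 and PCDHGC3 had the largest fitted changes. PCDHGC4 (chromosome 5, 141484997 to 141512979, plus strand), known for its part in the survival of interneurons, had 3.77 and 1.79 TPM (34 h), 9.70 and 7.35 (42 h), 20.5 and 12.6 (50 h) and 32.5 and 32.0 (72 h). No 2 time points overlapped. The log2 change at 72 h was 3.19 ± 0.30 (2.81 and 3.57 within the replicates, limma adjusted p 0.000207). It was 2.23 at 50 h (adjusted p 0.00374) and 1.37 at 42 h, which did not pass (0.0569) but did with the replicate block (0.0145). Without single libraries the 42 h value ran from 0.99 (adjusted p 0.281, without replicate 2 of 34 h) to 1.76 (0.0408, without replicate 1 of 34 h), and it passed without either 50 h library. From 50 to 72 h the change was 0.96 (adjusted p 0.0972, 0.0324 with the block, and 0.63 with 0.340 without replicate 2 of 50 h). Its share of the summed gamma level went from 7.09% ± 2.21 at 34 h to 25.0% ± 0.101 at 72 h.

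PCDHGC3 (chromosome 5, 141475947 to 141512979, plus strand), the most widely expressed C-type gene in the body, had 10.7 and 5.45 TPM (34 h), 14.9 and 15.6 (42 h), 24.9 and 15.2 (50 h) and 34.2 and 35.7 (72 h). The 42 and 50 h libraries overlapped and lay between the others. The log2 change at 72 h was 2.05 ± 0.29 (1.59 and 2.51 within the replicates, limma adjusted p 0.00197). At 50 h the change of 1.24 passed narrowly (adjusted p 0.0468), and the call was lost in 11 of 17 other settings, among them those without replicate 2 of 34 h (0.213) or replicate 1 of 50 h (0.202). PCDHGC5, the last C-type gene, did not pass the filter: it had 0.292 and 0.122 TPM (34 h) and 1.05 and 0.972 TPM (72 h). When no filter was applied it was called raised (0.74, adjusted p 0.0191).

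Of the gamma A and B genes 4 were called, with fitted changes at 72 h of 1.02 to 1.45. PCDHGB7 had 6.97 and 5.45 TPM (34 h), 10.1 and 8.25 (42 h), 14.6 and 12.8 (50 h) and 18.2 and 17.1 (72 h). No time points overlapped, and its log2 change at 72 h was 1.38 ± 0.17 (1.27 and 1.49 within the replicates, limma adjusted p 0.000892). At 50 h it was 1.03 (adjusted p 0.0100), a call lost without replicate 2 of 34 h (0.0752) or replicate 1 of 50 h (0.0673). PCDHGB6, an earlier gene of the same type, had 3.005 and 3.23 TPM (34 h), 4.88 and 5.03 (42 h), 8.47 and 7.25 (50 h) and 9.35 and 11.2 (72 h). Its time points did not overlap either, with a change of 1.45 ± 0.17 at 72 h (1.37 and 1.52, adjusted p 0.000665) and of 1.10 at 50 h (0.00687, and 0.0543 without replicate 1 of 50 h).

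PCDHGA11, an A-type gene whose promoter holds the gamma word, had 4.54 and 3.13 TPM (34 h), 5.87 and 5.13 (42 h), 9.37 and 6.22 (50 h) and 12.9 and 9.72 (72 h). All 4 time points were apart. The change at 72 h was 1.35 ± 0.24 (1.32 and 1.38 within the replicates, limma adjusted p 0.00542), and that at 50 h, 0.86, passed only with the replicate block (0.0278, against 0.0835 without). PCDHGB4, whose promoter holds the same word, had 4.96 and 3.96 TPM (34 h), 5.89 and 5.91 (42 h), 7.30 and 6.58 (50 h) and 11.0 and 9.11 (72 h). Its time points did not overlap, and it changed by 1.02 ± 0.17 at 72 h (1.01 and 1.03, adjusted p 0.0042).

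**Figure D4:**
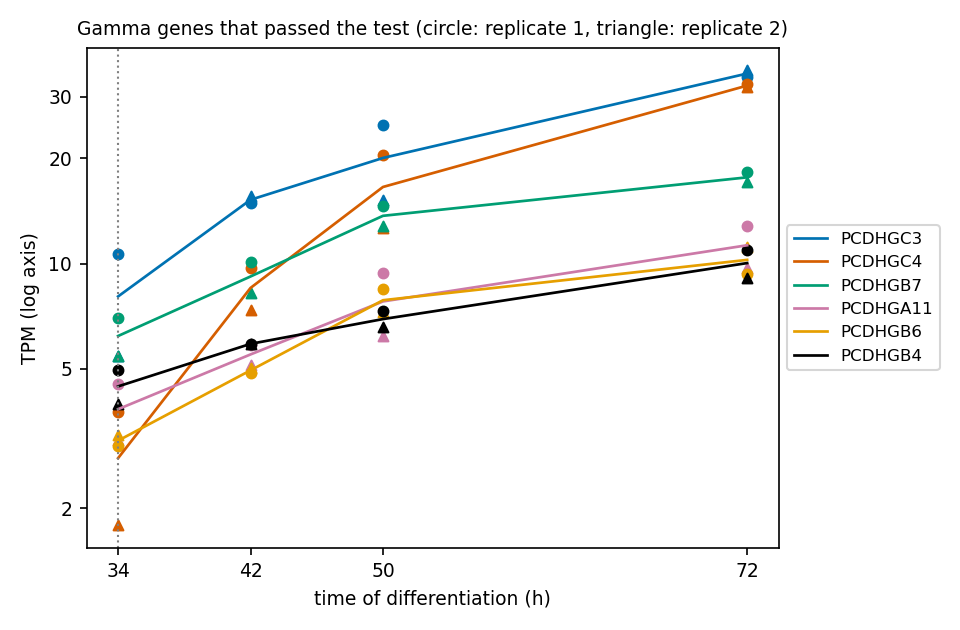
TPM of the 6 gamma genes that passed the test (log axis) against hours of differentiation. Circles and triangles are replicates 1 and 2, lines join the means (n = 2), and the dotted line at 34 h marks the addition of WNT3A. PCDHGC4 starts at 3.77 and 1.79 TPM, among the lowest of the 6, and ends at 32.5 and 32.0 TPM beside PCDHGC3.

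The rest of the gamma array stayed low. The other 7 tested gamma genes had mean levels at 72 h from 0.437 TPM (PCDHGA6) to 3.17 TPM (PCDHGA10), and none passed in any comparison. Of all 22 gamma genes 13 had both 72 h libraries above both 34 h libraries, 3 had both below, and 6 overlapped. Over all tested genes 36.7% lay above without overlap and 27.9% below. These shares are over genes that passed the filter, while 9 of the 22 gamma genes had not passed, among them 2 of those above and 2 of those below. By type, 6 of 7 B genes, 3 of 3 C genes and 4 of 12 A genes lay above. The summed A level was 10.0 ± 0.934 TPM (34 h) and 18.6 ± 1.04 TPM (72 h), the summed B level 16.9 ± 1.80 and 42.4 ± 1.48 TPM, and the summed C level 11.0 ± 5.21 and 68.3 ± 0.609 TPM. Without the C genes the gamma sum still went from 26.9 ± 2.73 to 60.9 ± 2.51 TPM, with ratios of 2.17 and 2.37 in the replicates.

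Position along the array went with the change in the gamma and alpha genes, in opposite directions. The 6 called gamma genes stand at positions 11, 15, 17, 18, 20 and 21 of 22, counted from the 5′ end of the array. Across the 22 gamma genes the rank correlation of position with the 72 h minus 34 h change was 0.50, and it was 0.27 over the 19 genes without C types. Across the 15 protein-coding alpha genes it was -0.69, and -0.52 over 13 without C types. With the pseudogene PCDHA14, added after seeing the data, which stands at position 11 and had the largest alpha change, it was -0.57 over 16 and -0.36 over 14. Across 16 beta genes it was -0.11. Gamma position also went with the mean level over all libraries, at 0.49 and, without C types, 0.43, and a log2(TPM + 1) change understates that of low genes. The part of the level in the gamma relation was not tested. These are descriptions across genes of the same 4 libraries, and in the alpha and gamma arrays the genes also share exons.

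**Figure D5:**
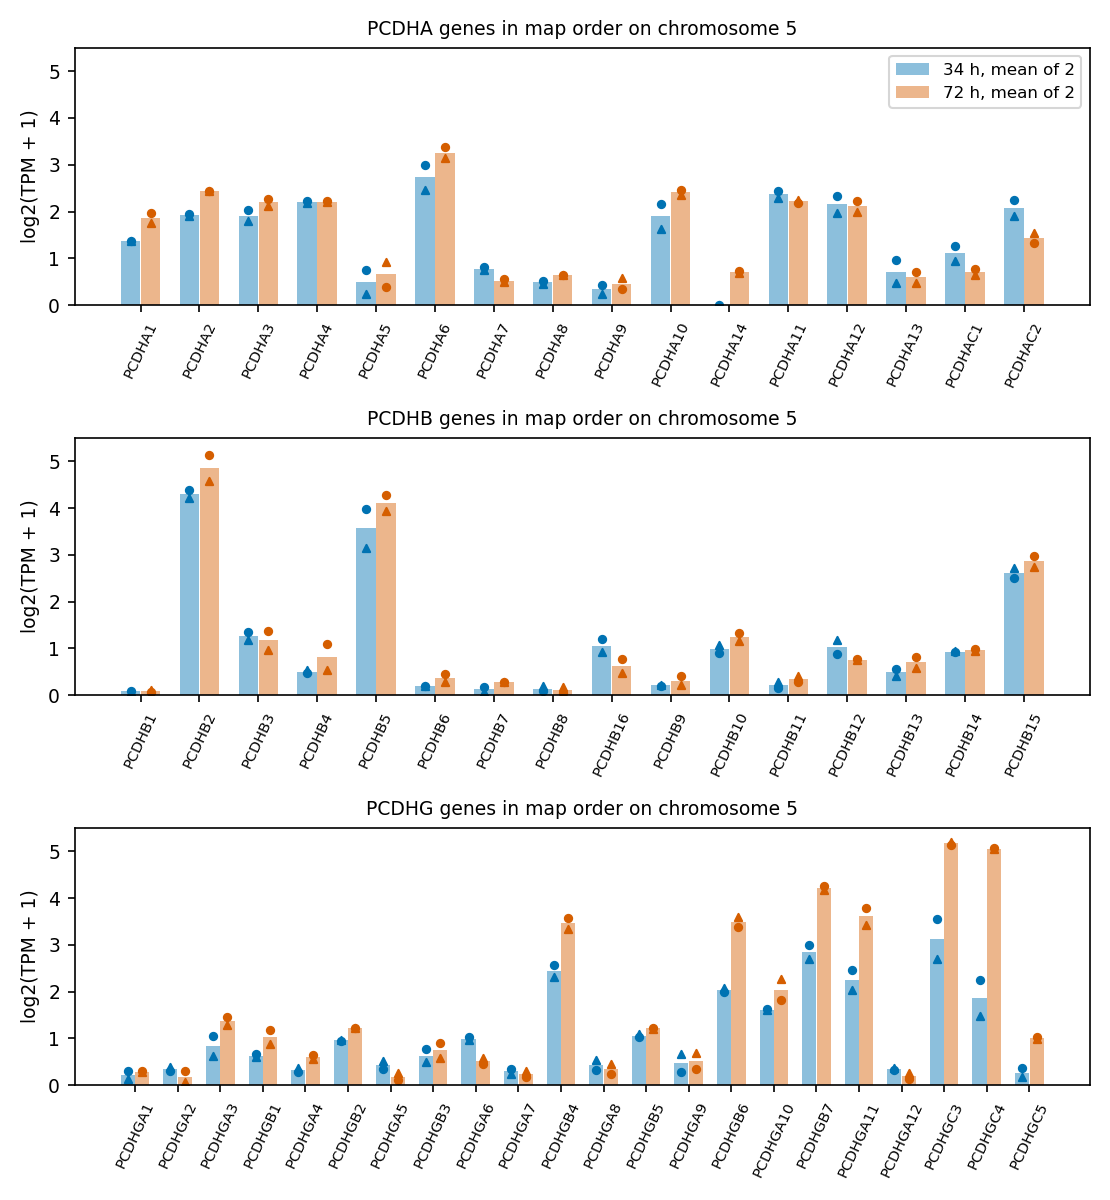
Level of each clustered gene as log2(TPM + 1) at 34 h (blue) and 72 h (orange), in map order on chromosome 5, with bars at the mean of 2 libraries and circles and triangles for replicates 1 and 2. The high gamma genes stand late in the array, and PCDHB2, PCDHB5 and PCDHB15 stand out in the beta array.

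Beta genes are complete in a single exon and have no shared exon, so that source of uncertainty does not apply to them, though reads can be split between beta genes of similar sequence. PCDHB2 and PCDHB5 held most of the beta sum, with shares of 44.6% ± 2.53 and 26.3% ± 7.98 at 34 h and 48.1% ± 2.54 and 28.3% ± 1.47 at 72 h. PCDHB2 (chromosome 5, 141094578 to 141098703, plus strand) had 19.8 and 17.6 TPM (34 h), 19.6 and 17.6 (42 h), 22.8 and 20.2 (50 h) and 33.8 and 22.7 (72 h). Its 72 h libraries lay above those of 34 h, but overlapped those of 50 h. The change of 0.55 ± 0.19 (0.75 and 0.35 within the replicates) did not pass (limma adjusted p 0.0683). It passed with the replicate block (0.0313). Without replicate 2 of 72 h it was 0.82 (0.0221), and without replicate 1 of 72 h it was 0.27 (0.349).

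PCDHB5 (chromosome 5, 141135218 to 141138625, plus strand) had 14.8 and 7.86 TPM (34 h), 10.6 and 10.4 (42 h), 14.7 and 11.1 (50 h) and 18.5 and 14.4 (72 h). The 34 h libraries spanned those of 42 and 50 h and overlapped those of 72 h. The change at 72 h was 0.55, with 0.30 and 0.80 within the replicates, and did not pass (adjusted p 0.179). It was 0.97 (0.0338) without replicate 1 of 34 h and 0.14 (0.745) without replicate 2, so the value rests on single 34 h libraries. PCDHB15 (chromosome 5, 141245349 to 141249365, plus strand) had 4.68 and 5.55 TPM (34 h), 6.54 and 5.03 (42 h), 5.54 and 5.27 (50 h) and 6.88 and 5.68 (72 h), a change of 0.25 at 72 h (adjusted p 0.373). The 34, 42 and 50 h libraries overlapped, and the 72 h libraries lay above those of 34 and 50 h. None of the 6 tested beta genes was called in a comparison with the main settings, and their median change at 72 h was 0.25. The 10 beta genes below the filter reached at most 1.49 TPM in a library.

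None of the 9 tested alpha genes was called in any comparison, and their median change at 72 h was 0.28. The unadjusted p at 72 h against 34 h was under 0.05 for 2 of the 9, PCDHA2 and PCDHAC2, and for 5506 of all 14908 genes, a larger share. PCDHA6 (chromosome 5, 140827958 to 141012344, plus strand) was the highest, with 7.02 and 4.52 TPM (34 h), 5.01 and 6.27 (42 h), 6.80 and 5.45 (50 h) and 9.41 and 7.79 (72 h). Its 72 h libraries were above all others, but the change of 0.52 did not pass (limma adjusted p 0.136). PCDHA2 had 2.85 and 2.76 TPM (34 h) and 4.41 and 4.39 TPM (72 h) (0.51, adjusted p 0.0917). Over its other settings the adjusted p ran from 0.0440, without a mean trend of the variance, to 0.247.

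The C-type alpha gene PCDHAC2, the last of its array, is known from serotonergic neurons. It had 3.75 and 2.74 TPM (34 h), 3.73 and 2.48 (42 h), 3.37 and 2.33 (50 h) and 1.52 and 1.91 (72 h), with both 72 h libraries the lowest. The change was -0.64 (adjusted p 0.108) and did not pass. PCDHAC1 went from 1.40 and 0.920 TPM (34 h) to 0.714 and 0.572 TPM (72 h). The C-type alpha genes thus lay below their 34 h libraries at 72 h and the C-type gamma genes above theirs, a contrast that was not tested.

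PCDHA14 is annotated as a transcribed unprocessed pseudogene and was kept because its name fits the rule. It was listed at 0 in both libraries of 34 and of 50 h, at 0.479 and 0.616 TPM in those of 42 h and at 0.664 and 0.598 TPM in those of 72 h. It did not pass the filter, and without a filter it was called raised at 42 h (0.63, adjusted p 0.0269) and at 72 h (0.71, 0.00398) against 34 h. It does not share the exons of the other alpha genes. Of all 66 members given a level, 33 had both 72 h libraries above both of 34 h, 15 had both below and 18 overlapped, where 36.7% of all tested genes lay above and 27.9% below; 33 of the 66 had not passed the filter.

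Genes that act with protocadherins were examined as lists. A list of 13 genes for promoter choice and silencing held CTCF, cohesin genes with NIPBL and WAPL, SMCHD1, DNMT3A, DNMT3B, SETDB1 and TRIM28. All 13 were tested, and at 72 h 2 were raised and 1 was lowered, with a median change of 0.11. Of all tested genes 12.7% were raised and 11.3% lowered, so the share called is near the background. DNMT3B, the de novo methyltransferase that marks clustered promoters, had 558 and 452 TPM (34 h), 356 and 332 (42 h), 337 and 310 (50 h) and 207 and 216 (72 h). No time points overlapped but 42 and 50 h. It fell by 0.55 at 42 h (limma adjusted p 0.0430), by 0.63 at 50 h (0.0127) and by 1.24 ± 0.11 at 72 h (0.000156). SMC1A and SMCHD1 were each raised by 0.54 at 72 h, close to the threshold (adjusted p 0.0491 and 0.0449), and with the replicate block SMC1A did not pass (0.0602).

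Of 16 cytoplasmic partners and effectors, among them the WAVE complex that binds protocadherin tails, 5 were raised and 0 lowered at 72 h, with a median change of 0.34, where 12.7% of all tested genes were raised and 11.3% lowered. An unadjusted p under 0.05 was found for 7 of the 16 and for 5506 of all 14908 genes. FYN, a kinase bound by protocadherin tails, went from 93.9 and 95.6 TPM (34 h) to 183 and 207 TPM (72 h) (1.03 ± 0.13, limma adjusted p 0.00102). CYFIP2, a subunit of the WAVE complex, went from 41.9 and 42.1 to 67.7 and 69.1 TPM (0.69 ± 0.10, adjusted p 0.00191). ABI2, another subunit, and MARCKS, a membrane-bound actin regulator, rose by 0.48 (0.0482) and 0.39 (0.0211).

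Other large cadherins of the same superfamily were also examined. Of 15 listed genes (FAT, Dachsous, CELSR and CDHR genes with CDH23) 12 were tested, and 6 were raised and 0 lowered at 72 h, with a median change of 0.54, against 12.7% raised, 11.3% lowered and a median of 0.06 over all tested genes. CDH23, the partner of PCDH15 at tip links, had 5.81 and 5.91 TPM (34 h), 9.07 and 7.31 (42 h), 16.2 and 13.6 (50 h) and 52.9 and 47.8 (72 h). It changed by 2.90 ± 0.15 at 72 h (limma adjusted p 1.2e-05), while PCDH15 stayed at or below 0.421 TPM in every library. CELSR1, a planar polarity cadherin, went from 12.5 and 8.83 to 30.3 and 27.2 TPM (1.37 ± 0.20, adjusted p 0.00239). CELSR2 rose by 1.23 (0.00495) and FAT4 by 1.23 (0.00579).

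The state of the cells at each time point is given by marker genes. The summed level of 6 pluripotency markers was 2425 to 2461 TPM (34 h), 1738 to 1841 (42 h), 1332 to 1438 (50 h) and 619 to 636 (72 h). Of the 6, 4 were lowered at 72 h, beside 11.3% of all tested genes. PRDM14 went the other way late in the course. It had 23.7 and 20.4 TPM (34 h), 7.28 and 8.56 (42 h), 11.9 and 9.64 (50 h) and 28.8 and 24.5 (72 h), and was called raised from 50 to 72 h. The summed level of 7 neural progenitor markers was 412 to 433 TPM (34 h), 370 to 421 (42 h), 461 to 525 (50 h) and 675 to 722 (72 h), with 4 of 6 tested raised at 72 h, beside 12.7% of all tested genes. SOX2 and NES held most of this sum, with 224 and 211 TPM and 137 and 132 TPM already at 34 h. SOX1, with the largest change of the list, had 1.63 and 2.14 TPM (34 h) and 56.5 and 45.2 TPM (72 h). SOX3 overlapped, with 21.7 and 20.7 TPM (34 h) and 23.4 and 16.4 TPM (72 h). HES5 did not pass the filter and was listed at 0 in both 72 h libraries. For 9 neuronal markers the sum was 214 to 267 TPM (34 h), 243 to 319 (42 h), 248 to 313 (50 h) and 184 to 216 (72 h). TUBB3 held most of it and was lower at 72 h, with 168 and 201 TPM against 261 and 210 TPM at 34 h, a change that was not called. ELAVL3 overlapped, with 0.959 and 0.460 TPM (34 h) and 0.589 and 1.05 TPM (72 h). Of the 4 tested neuronal markers DCX and STMN2 were raised at 72 h, beside the same 12.7%, STMN2 from 0.320 and 0.256 to 8.01 and 7.10 TPM, and NEUROG1 was listed at 0 in all libraries but 1 of 34 h. For 6 endoderm markers the sum was 13.4 to 15.4 TPM (34 h), 14.4 to 14.8 (42 h), 8.32 to 9.43 (50 h) and 6.93 to 8.08 (72 h), with SOX17 listed at 0 throughout. FOXA2 fell from 11.9 and 13.4 to 0.575 and 0.866 TPM, and CXCR4, which is not particular to endoderm, rose from 1.13 and 1.73 to 6.33 and 7.21 TPM. For 7 neural crest markers it was 11.4 to 12.9 TPM (34 h), 7.26 to 9.98 (42 h), 8.36 to 9.05 (50 h) and 10.1 to 12.2 (72 h), with members called in both directions: SNAI2 rose from 0.339 and 0.360 to 6.99 and 5.19 TPM, and FOXD3 was lowered from 4.65 and 4.48 TPM to values listed at 0. The neural progenitor sum was higher and the pluripotency sum lower at 72 h, as the gamma sum was higher, and their part in the protocadherin changes was not tested.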

How the data were processed

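The authors deposited 1 table of TPM per Ensembl gene with 1 column per library, and all 8 columns were used. Per the submitters' processing notes, Salmon 1.9.0 and GRCh38 were used; the annotation and any filter are not given in the sources used here. Every column summed to 1000000, so depth is unknown and no counting interval was computed. Rows of the same symbol were summed, giving 35940 symbols. Those with 1 TPM or more in 2 or more of 8 libraries were kept (14908). Using limma 3.58.1 (R 4.3.3), log2(TPM + 1) was modelled with the 4 time point means over all 8 libraries and a variance trend on the mean (4 residual degrees of freedom, against 2 for a pair of time points alone). Adjusted p-values are two-sided Benjamini-Hochberg values over all tested genes, with a threshold of 0.05. An exact permutation test of 2 against 2 libraries cannot give a p below 0.333 and was not used. A log2(TPM + 1) change understates that of low genes. The script was tested on simulated data.

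Protocadherins with a mean of at least 5 TPM at any time point or an adjusted p under 0.05 were to be given by library, and list genes that passed were named up to 4 a list. The members below the filter and the marker genes that are named with levels fall outside that rule and were chosen after their values were seen. The members and lists were chosen with earlier results of these data known. The replicate number is a batch number in the labels, so it may pair libraries. Across genes, differences between replicates at 34, 42 and 50 h correlated with each other at 0.0949 to 0.195. With those at 72 h the correlations were -0.104 to -0.0445. Positions and exons are from GENCODE 29 on GRCh38. No amino acid sequences were used.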

Additional observations from a re-analysis of the deposited data

How the results depend on the processing

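The counts of called protocadherins were recomputed with a pseudocount of 0.1, no filter, a mean of at least 5 TPM, TMM and quantile scaling, no variance trend, the replicate block, Ensembl rows apart, the compared time points alone and without each library, and no call reversed its direction. The count at 42 h against 34 h was 0, and 1 with no filter (PCDHA14), 1 with a mean of at least 5 TPM or the replicate block (PCDHGC4), and 0 to 1 without single libraries (PCDHGC4). The count at 50 h against 34 h was 6, ranging from 3 to 6 without single libraries, with 3 without replicate 2 of 34 h (2 raised, 1 lowered) or replicate 1 of 50 h (1 raised, 2 lowered), and quantile scaling gave 3 raised and 2 lowered. The count at 72 h against 34 h was 11, with 9 to 14 over all settings. The count at 72 h against 50 h was 2 (with no filter PCDHA14 took the place of PCDH11X), with 1 when Ensembl rows were kept apart or the time points were fitted alone, 1 to 2 without single libraries (1 without either library of 42, 50 or 72 h), and 1 raised and 2 lowered after TMM or quantile scaling. The F-test called 11, and 6 to 11 without single libraries (6 without either 72 h library, 7 without replicate 2 of 34 h). The replicate block gave 1, 7, 12, 0 and 3 calls in the 5 comparisons and 11 by the F-test. Of all 14908 tested genes it called 403, 933, 3601, 7 and 1098 in the same 5 comparisons. Calls of members that the block changed stand with the genes. Where a library is left out, the lone library of its time point is taken to vary like the others. Genes under about 1 TPM are limited by unknown depth. The cause of these differences was not tested.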
